A study of Saccharomyces cerevisiae with 11 samples.

Results

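The general stress and antioxidant genes of budding yeast (Saccharomyces cerevisiae) were followed in cells that lacked Paf1 or Ctr9 and in cells in which PAF1 was being shut off. They were 47 named genes out of 5656 genes with a probe set of their own, 23 of the general stress response and 24 of the antioxidant system. Each gene was read from the probe set annotated to it alone. DDR48 had 2 such probe sets, of which the brighter was used, and HOR2 was found under its present name GPP2. The members were set by name, as Msn2 and Msn4 type stress genes, antioxidant enzymes and the factors that control them.

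Paf1 and Ctr9 are subunits of a complex that binds elongating RNA polymerase II. Total RNA from 11 samples had been hybridised to Affymetrix yeast arrays, 1 array each. The strain set held 2 arrays of a paf1 deletion, 1 of a ctr9 deletion and 2 of wild type, all grown to mid-log phase in YPD, a rich medium, with 4% glucose. The time course held 1 array each of a TetO2-Paf1 strain after 2, 4, 5, 6 and 8 h of doxycycline, which represses the TetO2 promoter, and 1 array without the drug (0 h). Those cultures were also described as mid-log, and the labels named no medium for them. Genotypes beyond these names, and whether replicates came from separate cultures, were not given in the labels, so an effect of a deletion cannot be told apart from other differences in strain background. None of the 11 arrays was from doxycycline-treated cells with an unregulated PAF1, so an effect of the drug or of time in culture cannot be told apart from loss of Paf1.

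When yeast meets heat, salt, oxidants or poor nutrition, the paired zinc finger factors Msn2 and Msn4 enter the nucleus and bind stress response elements in front of a large set of genes. Protein kinase A holds them back while glucose is plentiful. Oxidants are met by a second arm, in which the factors Yap1 and Skn7 switch on thioredoxins, glutaredoxins, peroxiredoxins and catalases. These enzymes reduce peroxides and disulfides, and copies of most of them sit in both the cytosol and the mitochondria.

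Strain arrays carried bounded scores of unstated scale, so differences between them are not fold changes. In the top 10% of probe sets by time course signal, the mean score no longer increased with signal (Spearman correlation -0.24, against 0.92 over all probe sets), and 12 of the 47 members belonged to them. Most of these 12 were antioxidant genes. The 6 time course arrays carried a linear signal intensity. The 28 untargeted control probe sets scored -2.08 to 1.93 and reached signals of up to 44.2, and values in those ranges were treated as not above background. PAF1 itself scored 1.00 and 0.47 in paf1 deletion cells and 6.86 in ctr9 deletion cells, against 7.27 and 8.08 in wild type. Its signal in the TetO2-Paf1 strain was 272, 119, 139, 165, 184 and 166 at 0, 2, 4, 5, 6 and 8 h, so it was lowest at 2 h. CTR9 scored 0.00 in the ctr9 deletion, against 1.84 and 4.36 in wild type. Hybridisation spike-in signals were 4.34-fold and 3.93-fold the 0 h level at 4 h and 6 h, and the 5' to 3' ratio of actin was 5.92% at 4 h and 68.6% to 78.6% otherwise. Their part in the time course values was not tested.

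In the paf1 deletion, 5 general stress genes rose and no member of either group fell past the threshold. HSP12, TFS1, MSC1, GRE1 and PAI3 passed, with score differences of 2.41 to 3.74. None of the 22 antioxidant genes tested passed. The 5 were 5 of 21 general stress genes tested, against 1.12% of all 6493 probe sets that passed on the higher side and 0.585% on the lower side (limma, Benjamini-Hochberg adjusted p under 0.05, two-sided). Over genes whose wild type mean itself reached the filter, a restriction chosen after seeing the data, it was 4 of 19, beside 0.594% of 6224 probe sets. The median difference was 0.73 over the tested general stress genes (0.43 over those 19) and -0.003 over the tested antioxidant genes, beside -0.06 over all probe sets. At an unadjusted p under 0.05, 14 of the 43 members tested were higher and 0 lower, beside 14.8% of all probe sets in either direction. The difference was above 0 for 25 of the 43, beside 45.6%. The filter on low scores had removed ALD3, RTN2, CTA1 and GPX1. RTN2 scored 2.68 and 3.13 in paf1 deletion cells and 2.49 in ctr9 deletion cells, against 1.76 and 2.40 in wild type. SOL4 and PAI3 had passed the filter only through their deletion scores, so the medians and counts describe the genes tested and carry no test.

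HSP12 encodes a small hydrophilic protein that associates with membranes and is among the most strongly stress-induced genes of yeast. It scored 7.59 and 7.22 in paf1 deletion cells and 7.30 in ctr9 deletion cells, against 2.66 and 4.68 in wild type. All 3 deletion scores lay above both wild type scores, which themselves differed by more than the deletion scores did. The difference in the paf1 deletion was 3.74 (SE 0.68, n = 2 per group, limma adjusted p = 0.0328), and that in the ctr9 deletion was 3.63 and did not pass (SE 0.84, limma adjusted p = 0.173).

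TFS1, an inhibitor of the vacuolar carboxypeptidase Y, scored 8.10 and 8.00 in paf1 deletion cells and 7.91 in ctr9 deletion cells, against 5.78 and 5.50 in wild type. Here the replicates of each strain lay close together and the deletions stood apart from wild type, by 2.41 for paf1 (SE 0.47, limma adjusted p = 0.0395). MSC1, named for a part in meiotic recombination, scored 7.59 and 8.63 in paf1 deletion cells and 8.46 in ctr9 deletion cells, against 5.78 and 4.77 in wild type. It rose by 2.84 in the paf1 deletion (SE 0.56, limma adjusted p = 0.0395). The ctr9 deletion differences of TFS1 and MSC1 were 2.27 and 3.19 and did not pass (limma adjusted p = 0.194 and 0.164).

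PAI3 encodes the inhibitor of another vacuolar protease, proteinase A. It scored 4.76 and 4.82 in paf1 deletion cells and 4.99 in ctr9 deletion cells, against 1.93 and 1.77 in wild type, both within the range of untargeted controls. All 3 deletion scores lay above that range. The difference was 2.94 in the paf1 deletion (SE 0.64, limma adjusted p = 0.0492) and 3.14 in the ctr9 deletion, which did not pass (limma adjusted p = 0.192). Since PAI3 was kept for testing by its deletion scores alone and had no wild type level above background, its call and the size of its difference are uncertain. GRE1, a hydrophilin gene induced by osmotic stress, scored 6.18 and 5.78 in paf1 deletion cells and 3.98 in ctr9 deletion cells, against 3.44 and 2.29 in wild type. It rose by 3.12 in the paf1 deletion (SE 0.63, limma adjusted p = 0.0418). Its ctr9 deletion score exceeded the higher wild type score by less than the wild type scores differed from each other.

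The 5 calls needed both wild type arrays in the fit, although the differences stayed at 2.27 to 4.75 without 1 of those arrays. With either of them left out, 0 members and 0 of all 6493 probe sets passed. With paf1 deletion array 1 or 2 left out, 4 members did, beside 189 and 190 of all probe sets, where the joint fit of all 5 arrays gave 111. Without a filter on low scores 0 passed, and with quantile normalisation, without the score trend with signal or without a trend in the variance prior 1 did.

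**Figure D1:**
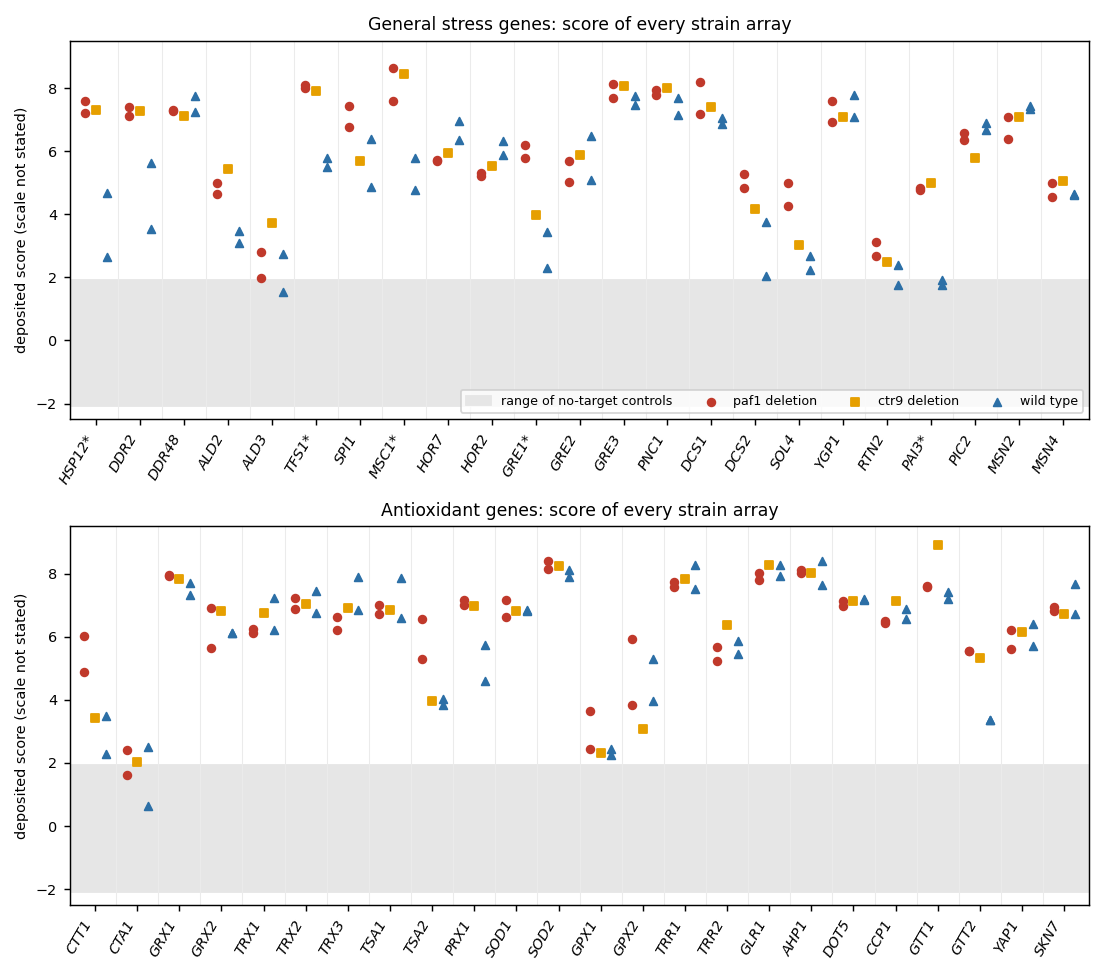
Deposited score (vertical axis, scale not stated) of each of the 47 members on each strain array, with the paf1 deletion as circles, the ctr9 deletion as squares and wild type as triangles, and the range of untargeted controls shaded. An asterisk marks the 5 genes past the threshold in the paf1 deletion. HSP12, TFS1, MSC1 and PAI3 have all 3 deletion scores clear of both wild type scores, while the scores of most antioxidant genes lie close together.

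Of the other general stress genes, DDR2, a stress protein gene responsive to DNA damage and heat, came closest. Its scores were 7.13 and 7.39 in paf1 deletion cells and 7.28 in ctr9 deletion cells, against 3.52 and 5.64 in wild type. The groups did not overlap, and the difference of 2.68 did not pass (SE 0.69, limma adjusted p = 0.0919). DCS2, a relative of the scavenger decapping enzyme gene DCS1, differed by 2.17, and SOL4, a 6-phosphogluconolactonase gene, by 2.16. SOL4 scored 4.26 and 4.98 in paf1 deletion cells and 3.02 in ctr9 deletion cells, against 2.23 and 2.69 in wild type. ALD2, a cytosolic aldehyde dehydrogenase gene, differed by 1.54 and SPI1, a cell wall protein gene, by 1.48, and neither passed (limma adjusted p = 0.248 and 0.298).

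In all, both paf1 deletion scores lay above both wild type scores for 12 of the 21 tested general stress genes and below them for 4. The corresponding background was 19.4% and 24.1% of all probe sets. Over genes with a wild type mean at the filter or above, 10 of 19 were on the higher side, beside 17.2%. All 3 deletion scores lay above both wild type scores for 11 of the 21, beside 15.8% of all probe sets, and below them for 4, beside 17.2%. Over the same 19 genes, 9 had all 3 above, beside 13.8%. The 4 on the lower side were HOR7, HOR2, PIC2 and MSN2, with differences of -0.94, -0.83, -0.33 and -0.66 that did not pass (limma adjusted p = 0.452, 0.518, 0.857 and 0.605). HOR7 and HOR2, which encodes a glycerol 3-phosphate phosphatase, are known for induction by hyperosmotic stress.

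Several general stress genes with high scores in every strain showed small differences. DDR48, whose product is abundant after DNA damage, scored 7.29 and 7.26 in paf1 deletion cells and 7.10 in ctr9 deletion cells, against 7.75 and 7.24 in wild type. Its other probe set differed by -0.30 and the one used by -0.22, and neither passed. YGP1, a secreted glycoprotein gene, scored 7.60 and 6.94 in paf1 deletion cells and 7.09 in ctr9 deletion cells, against 7.78 and 7.08 in wild type. PNC1, the nicotinamidase gene, and GRE3, the aldose reductase gene, differed by 0.43 and 0.32. DDR48, YGP1 and PNC1 belonged to the members in the top 10% of signal, and all 12 of those had differences between -0.94 and 0.43 in the paf1 deletion.

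PAI3 and DDR48 are adjacent genes (YMR174C and YMR173W), and differed by 2.94 and -0.22 in the paf1 deletion. The adjacent pair ALD2 and ALD3 (YMR170C and YMR169C) encodes closely related aldehyde dehydrogenases. A probe set annotated to both scored 5.41 and 6.05 in paf1 deletion cells and 7.26 in ctr9 deletion cells, against 5.60 and 5.18 in wild type, and it cannot separate the pair.

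Among the antioxidant genes, those with the largest differences in the paf1 deletion were CTT1, GTT2, TSA2 and PRX1, and none of the 22 tested passed. CTT1, the cytosolic catalase gene and a standard Msn2 and Msn4 target, scored 6.02 and 4.88 in paf1 deletion cells and 3.44 in ctr9 deletion cells, against 2.30 and 3.50 in wild type. The paf1 deletion scores were the higher pair and the ctr9 deletion score lay within wild type. The difference for paf1 was 2.55 (SE 0.70, limma adjusted p = 0.107).

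TSA2, the stress-induced relative of the major peroxiredoxin gene TSA1, had the same arrangement, with 6.56 and 5.28 in paf1 deletion cells and 3.95 in ctr9 deletion cells, against 4.03 and 3.84 in wild type. Its difference was 1.99 (SE 0.62, limma adjusted p = 0.157). GTT2, a glutathione transferase gene, scored 5.54 on both paf1 deletion arrays and 5.34 in ctr9 deletion cells, against 3.37 and 3.35 in wild type. Replicates were almost identical, but the test moderates each gene's spread towards that of all genes, and the difference of 2.18 did not pass (SE 0.55, limma adjusted p = 0.0866). PRX1, the mitochondrial peroxiredoxin gene, scored 7.0 and 7.15 in paf1 deletion cells and 6.99 in ctr9 deletion cells, against 4.59 and 5.74 in wild type, a difference of 1.91 (SE 0.56, limma adjusted p = 0.134).

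Abundant cytosolic enzymes showed small differences between strains. TSA1, TRX2 and SOD1 belonged to the top 10% of signal, where the score no longer increased with signal. A small score difference there need not mean a small change in RNA. TSA1 scored 6.71 and 7.02 in paf1 deletion cells and 6.85 in ctr9 deletion cells, against 7.87 and 6.58 in wild type. TRX2, a cytosolic thioredoxin gene and a textbook Yap1 target, scored 6.88 and 7.22 in paf1 deletion cells and 7.05 in ctr9 deletion cells, against 7.44 and 6.76 in wild type. SOD1, the copper-zinc superoxide dismutase gene, scored 7.16 and 6.64 in paf1 deletion cells and 6.83 in ctr9 deletion cells, against 6.84 and 6.81 in wild type. For these 3 genes the paf1 deletion scores lay within or around those of wild type, with differences of -0.36, -0.05 and 0.08.

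Glutaredoxin genes gave differences of 0.43 for GRX1 and 0.16 for GRX2, where GRX2 scored 6.91 and 5.63 in paf1 deletion cells and 6.83 in ctr9 deletion cells, against 6.11 on both wild type arrays. GRX1 scored 7.96 and 7.93 in paf1 deletion cells and 7.84 in ctr9 deletion cells, against 7.72 and 7.31 in wild type. The mitochondrial superoxide dismutase gene SOD2 scored 8.40 and 8.15 in paf1 deletion cells and 8.24 in ctr9 deletion cells, against 8.13 and 7.89 in wild type. The remaining reductases and peroxidases, namely TRX1, TRR1, TRR2, GLR1, AHP1, DOT5, CCP1 and GPX2, differed by -0.55 to 0.25.

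TRX3, the mitochondrial thioredoxin gene, was at the low end. It scored 6.64 and 6.20 in paf1 deletion cells and 6.92 in ctr9 deletion cells, against 7.91 and 6.84 in wild type, a difference of -0.96 that missed the threshold (SE 0.54, limma adjusted p = 0.456). TRR2, the mitochondrial thioredoxin reductase gene, scored 5.22 and 5.69 in paf1 deletion cells and 6.36 in ctr9 deletion cells, against 5.46 and 5.87 in wild type. CCP1, the mitochondrial cytochrome c peroxidase gene, scored 6.44 and 6.51 in paf1 deletion cells and 7.13 in ctr9 deletion cells, against 6.87 and 6.57 in wild type. For both genes the ctr9 deletion score was the highest of the 5.

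Both paf1 deletion scores lay above both wild type scores for 7 of the 22 tested antioxidant genes, and below them for 3, namely TRX3, DOT5 and CCP1. That is 31.8% and 13.6% of them, beside 19.4% and 24.1% of all probe sets. The difference between the gene groups was not tested, since genes are not replicates.

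None of the regulators passed in either deletion. MSN2 scored 7.07 and 6.38 in paf1 deletion cells and 7.08 in ctr9 deletion cells, against 7.34 and 7.42 in wild type. MSN4 scored 4.54 and 4.99 in paf1 deletion cells and 5.05 in ctr9 deletion cells, against 4.63 and 4.61 in wild type. YAP1 scored 6.23 and 5.60 in paf1 deletion cells and 6.14 in ctr9 deletion cells, against 5.72 and 6.41 in wild type. SKN7 scored 6.93 and 6.82 in paf1 deletion cells and 6.72 in ctr9 deletion cells, against 7.67 and 6.73 in wild type. Differences in the paf1 deletion were -0.66, 0.15, -0.15 and -0.33 (limma adjusted p = 0.605, 0.962, 0.958 and 0.862). These factors act mainly through their location and modification in the cell, which arrays do not measure.

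In the ctr9 deletion, 0 members passed in limma, against 0.0308% of all probe sets on the higher side and 0.0% on the lower. At an unadjusted p under 0.05, 9 of the 43 tested members differed, all higher, beside 9.64% of all probe sets. The score lay above both wild type scores for 21 of the 43, beside 34.2% of all probe sets, and below both for 8, beside 30.7%. The difference was above 0 for 29, beside 53.5%. PAI3 is among the 9, and SOL4 and PAI3 are among the 21 and the 29. Both genes were kept for testing by their deletion scores, and counts without them were not computed. With paf1 deletion array 1 or 2 left out of the joint fit, 3 members passed in the ctr9 deletion, while the count over all probe sets was 108 and 105, against 2 with all arrays. The differences were largest for HSP12, MSC1, PAI3, DDR2 and TFS1 among the general stress genes, at 3.63, 3.19, 3.14, 2.70 and 2.27 (SE 0.57 to 0.84, n = 1 against 2). Among the antioxidant genes they were largest for GTT2 at 1.98, PRX1 at 1.83, GTT1 at 1.61 and GPX2 at -1.54. GTT1, a glutathione transferase gene, scored 7.61 and 7.57 in paf1 deletion cells and 8.92 in ctr9 deletion cells, against 7.41 and 7.21 in wild type. GPX2, a phospholipid hydroperoxide glutathione peroxidase gene, scored 5.92 and 3.83 in paf1 deletion cells and 3.08 in ctr9 deletion cells, against 3.96 and 5.29 in wild type, so its paf1 deletion replicates spanned the wild type range. The deletions share their wild type arrays, and a high or low wild type score moves both differences.

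The paf1 and ctr9 deletions were then compared directly, and 0 members passed in limma (background 0.0% higher and 0.0616% lower). At an unadjusted p under 0.05, 4 of 43 members differed, beside 2.93% of all probe sets. CTT1, GRE1 and TSA2 were higher in the paf1 deletion by 2.01, 2.00 and 1.97 (SE 0.86, 0.77 and 0.75, n = 2 against 1), and GTT1 was lower by -1.33 (SE 0.49). None passed after adjustment (limma adjusted p = 1.0 for each), so these data do not show that the deletions differ in these genes, nor that they do not.

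In the time course, the general stress genes stood higher from 2 h of doxycycline onward. At 2 h, 15 of the 22 tested were at least 2-fold their 0 h signal, against 4.04% of all 6492 probe sets tested, and 2 of 23 antioxidant genes were. Of the members tested, ALD2, ALD3, SOL4, RTN2, PAI3 and CTT1 had 0 h signals under the filter and were kept by their later signals. Over genes at or above it at 0 h, the counts were 11 of 17 and 1 of 22, beside 2.97% of 6232 probe sets. The median log2 signal relative to 0 h was 1.41, 1.24, 0.71, 1.36 and 1.55 at 2, 4, 5, 6 and 8 h for the general stress genes (1.19, 1.21, 0.58, 1.48 and 1.53 over those 17). Antioxidant genes gave 0.38, 0.66, 0.25, 0.49 and 0.48 at those times, and all probe sets tested 0.04, 0.06, -0.01, 0.09 and 0.08. At least 2-fold the 0 h signal were 13 of the 22 general stress and 5 of the 23 antioxidant genes at 4 h (6.21% of all probe sets), 8 and 1 at 5 h (3.85%), 13 and 3 at 6 h (6.75%) and 14 and 2 at 8 h (6.33%). With the 6 genes left out, they were 9 of 17 and 4 of 22 at 4 h, 5 and 0 at 5 h, 10 and 2 at 6 h and 10 and 1 at 8 h. The shares of the 6232 probe sets at those 4 times were 4.85%, 2.44%, 5.26% and 4.61%. There was 1 array per time, so single times have no test. In bulk RNA, more cells with a transcript and more transcript per cell cannot be told apart.

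A slope over hours, the test that 1 array per time allows, called 0 members in limma, against 0.0% of all probe sets in either direction. The smallest adjusted p of any member was 0.557. At an unadjusted p under 0.05, 10 of 45 members had a slope, beside 8.63% of all probe sets. The slope was above 0 for 42 of 45, beside 56.9% of all. The 45 include ALD2, ALD3, SOL4, RTN2, PAI3 and CTT1, kept for testing by their later signals. Neither the slope counts nor those of the added test below were computed without these genes. A straight line describes a step at the first sampled time poorly. The 5 doxycycline arrays were therefore also set against the 0 h array as 1 level, a test chosen after seeing the data. Of 45 members 0 passed in it as well, against 0.0616% of all probe sets on the higher side, and 19 were higher at an unadjusted p under 0.05, beside 7.86% of all. With the 5 h array left out of that test, PIC2, MSC1, HSP12, YGP1 and PRX1 had limma adjusted p-values of 0.0218 to 0.0409, against 0.37% of all probe sets under the threshold on the higher side. These 5 are not counted as changed, because the array was left out after its lower signals had been seen, which narrows the spread, and the 0 h level rests on 1 array. With 4 h and 6 h left out instead, 0 members passed.

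**Figure D2:**
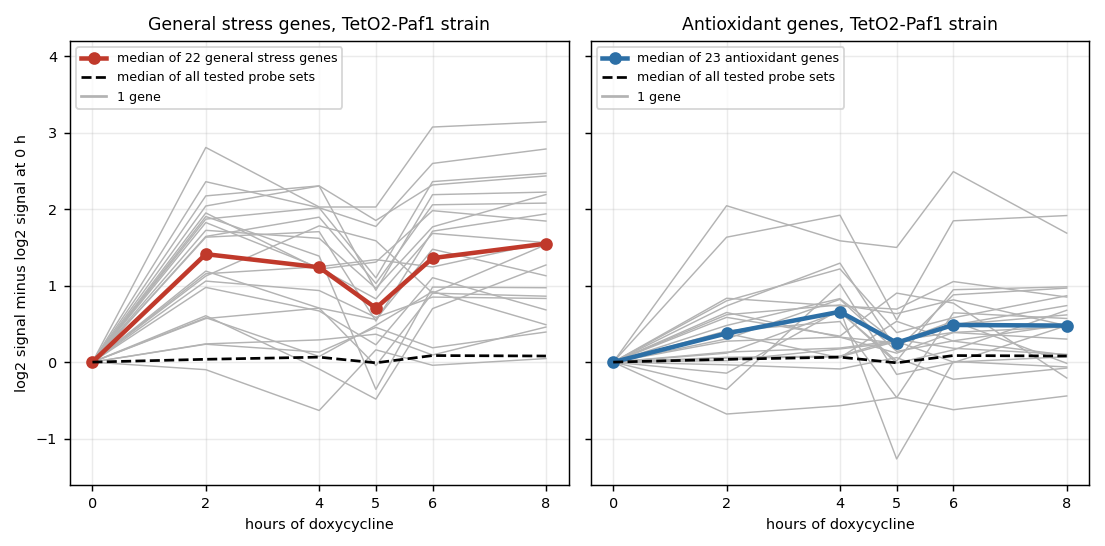
Log2 signal minus log2 signal at 0 h (vertical axis) against hours of doxycycline in the TetO2-Paf1 strain, 1 array per time, for 22 general stress genes (left) and 23 antioxidant genes (right). Thin lines are single genes, thick lines the medians and dashed lines the median of all tested probe sets. The general stress median reaches 1.41 at 2 h and dips to 0.71 at 5 h, and the antioxidant median stays between 0.25 and 0.66.

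PIC2, which encodes a mitochondrial carrier of copper and phosphate, had the smallest p in the comparison of later times with 0 h. Its signal was 113, 511, 559, 409, 564 and 612 at 0, 2, 4, 5, 6 and 8 h, so every later array exceeded 0 h by at least 3.61-fold. The fitted log2 difference was 2.22 (SE 0.25, limma adjusted p = 0.054), just short of the threshold. Its scores did not follow, with 6.36 and 6.57 in paf1 deletion cells and 5.79 in ctr9 deletion cells, against 6.90 and 6.68 in wild type.

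TFS1 signal was 194, 709, 785, 416, 995 and 1073 at 0, 2, 4, 5, 6 and 8 h. HSP12 signal was 529, 1639, 1723, 767, 1731 and 2024 at 0, 2, 4, 5, 6 and 8 h. Both stood 3-fold or more above 0 h at every later time except 5 h, when TFS1 was at 2.15-fold and HSP12 at 1.45-fold. DDR2 signal followed the same course, with 418, 1380, 1284, 817, 1424 and 1909 at 0, 2, 4, 5, 6 and 8 h. MSC1 signal was 64.4, 265, 318, 123, 294 and 300 at 0, 2, 4, 5, 6 and 8 h. For MSC1 the 6 h signal was 2.38-fold the 5 h signal.

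Other general stress genes reached high signal ratios from 0 h values that were not above background. SOL4 signal was 18.5, 129, 75.4, 75.4, 156 and 163 at 0, 2, 4, 5, 6 and 8 h. RTN2, a reticulon gene of the endoplasmic reticulum, gave 10.3, 52.8, 41.7, 35.2, 62.3 and 71.0 at 0, 2, 4, 5, 6 and 8 h. PAI3 gave 23.4, 52.1, 55.5, 59.2, 55.4 and 69.3 at 0, 2, 4, 5, 6 and 8 h. All their later signals were above 0 h, but the 0 h values, and for RTN2 those at 4 h and 5 h, were no higher than untargeted controls, so the size of the ratio is uncertain.

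In all, 7 of the 22 tested general stress genes were at least 2-fold their 0 h signal at all 5 later times, against 1.39% of all probe sets. They were TFS1, PNC1, SOL4, YGP1, RTN2, PAI3 and PIC2. SOL4, RTN2 and PAI3 had no 0 h level above background. Over genes whose 0 h signal reached the filter, which leaves out these and ALD2 and ALD3, it was 4 of 17, beside 0.85% of 6232 probe sets. YGP1 was at 3.12-fold at 2 h and 4.22-fold at 8 h, and PNC1 at 3.86-fold and 3.59-fold, and neither passed in a deletion. GRE3 was at 3.54-fold at 2 h and 2.95-fold at 8 h. DCS1 and HOR2 were at 2.28-fold and 2.08-fold at 2 h, and SPI1 at 2.18-fold.

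DDR48, HOR7, GRE2 and GRE1 stayed under 2-fold at every time. DDR48 signal was 11527, 13596, 14098, 14841, 12297 and 15837 at 0, 2, 4, 5, 6 and 8 h, at most 1.37-fold the 0 h value. HOR7 reached at most 1.37-fold and GRE2, a methylglyoxal reductase gene, 1.90-fold. GRE1 signal was 26.5, 20.7, 25.6, 37.3, 32.7 and 31.7 at 0, 2, 4, 5, 6 and 8 h, all within the range of untargeted controls. GRE1 thus rose in the paf1 deletion and was not detectable above background in the time course.

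**Figure D3:**
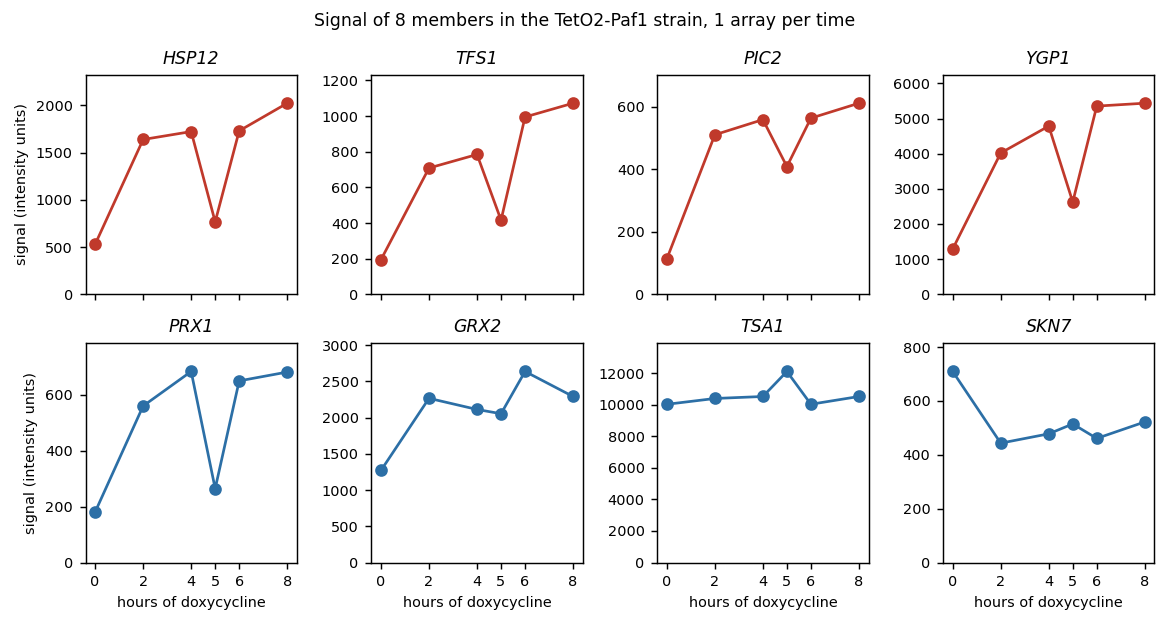
Signal in intensity units (vertical axis, from 0, with a scale for each gene) against hours of doxycycline for 4 general stress genes (top) and 4 antioxidant genes (bottom), 1 array per time. HSP12, TFS1, PIC2, YGP1 and PRX1 are higher at 2 h and lower at 5 h than at 4 h or 6 h, TSA1 stays within 1.21-fold, and SKN7 is lower at every later time than at 0 h.

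Among the antioxidant genes, PRX1 came closest to the general stress genes. Its signal was 181, 560, 684, 264, 650 and 682 at 0, 2, 4, 5, 6 and 8 h. CTT1 signal was 23.5, 96.9, 70.5, 66.4, 132 and 75.6 at 0, 2, 4, 5, 6 and 8 h, the first of these no higher than untargeted controls. PRX1 and CTT1 were the 2 antioxidant genes at least 2-fold their 0 h signal at 2 h, and CTT1, with no 0 h level above background, was the only 1 so at all 5 later times, against 1.39% of all probe sets.

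The cytosolic glutaredoxin genes GRX1 and GRX2 had later signals above 0 h throughout. GRX2 signal was 1271, 2267, 2113, 2054, 2637 and 2292 at 0, 2, 4, 5, 6 and 8 h. GRX1 signal was 1584, 2759, 3685, 2069, 2368 and 2890 at 0, 2, 4, 5, 6 and 8 h. For GRX2 the lowest later value was 1.62-fold the 0 h value, and for GRX1 it was 1.31-fold.

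Mitochondrial enzymes other than PRX1 showed smaller ratios. CCP1 signal was 516, 677, 814, 520, 993 and 1020 at 0, 2, 4, 5, 6 and 8 h. TRR2 signal was 333, 553, 815, 372, 612 and 650 at 0, 2, 4, 5, 6 and 8 h. At 8 h they were at 1.98-fold and 1.96-fold and at 5 h at 1.01-fold and 1.12-fold, while TRR2 reached 2.45-fold at 4 h. SOD2 signal was 704, 1104, 882, 838, 988 and 1080 at 0, 2, 4, 5, 6 and 8 h. TRX3 signal was 163, 216, 235, 118, 255 and 242 at 0, 2, 4, 5, 6 and 8 h, above 0 h at every later time but 5 h.

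TSA1 signal was 10021, 10390, 10516, 12101, 10025 and 10516 at 0, 2, 4, 5, 6 and 8 h. SOD1 signal was 2182, 2213, 2459, 2609, 3166 and 2159 at 0, 2, 4, 5, 6 and 8 h. The ratios to 0 h stayed between 1.00 and 1.21 for TSA1 and between 0.99 and 1.45 for SOD1, and between 0.86 and 1.04 for TRX1. TRX2 signal was 1151, 1767, 1932, 1786, 2024 and 1601 at 0, 2, 4, 5, 6 and 8 h, so it was at 1.39-fold to 1.76-fold throughout. TRR1, GLR1 and AHP1 stayed between 1.04-fold and 1.45-fold, and DOT5, the nuclear peroxiredoxin gene, reached 1.77-fold at 4 h.

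TSA2 signal was 53.6, 48.5, 86.2, 22.3, 53.9 and 51.3 at 0, 2, 4, 5, 6 and 8 h, so it was at 0.42-fold at 5 h, a value no higher than untargeted controls. It was the only 1 of 45 tested members to lose that much at any time, where 14.0% of all probe sets came to 50% or less. GTT2 signal was 102, 111, 161, 101, 114 and 163 at 0, 2, 4, 5, 6 and 8 h. The higher scores of TSA2 and GTT2 in the paf1 deletion thus had no counterpart at 2 h. GTT1 signal was 974, 1357, 1732, 1161, 1364 and 1625 at 0, 2, 4, 5, 6 and 8 h. GPX2 signal was 45.6, 68.4, 57.7, 85.2, 77.8 and 39.5 at 0, 2, 4, 5, 6 and 8 h, and GPX1 and the peroxisomal catalase gene CTA1 gave 20.4 to 80.7 on all arrays.

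Of the regulators, SKN7 was lower at every later time. Its signal was 709, 443, 478, 515, 461 and 522 at 0, 2, 4, 5, 6 and 8 h, and it was the only tested member with all later signals below 0 h, beside 18.8% of all probe sets. Its fitted difference of later times from 0 h was -0.56 on the log2 scale and did not pass (SE 0.19, limma adjusted p = 0.331). MSN4 signal was 119, 177, 194, 115, 222 and 216 at 0, 2, 4, 5, 6 and 8 h. MSN2 signal was 512, 478, 330, 572, 497 and 528 at 0, 2, 4, 5, 6 and 8 h, its lowest value being on the array with the low actin ratio. YAP1 signal was 243, 266, 276, 296, 318 and 335 at 0, 2, 4, 5, 6 and 8 h, a small and steady increase whose slope did not pass (limma adjusted p = 0.581).

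The 5 h array stood below both its neighbours for 14 of 22 general stress and 15 of 23 antioxidant genes, against 47.4% of all probe sets. All 5 later signals were above 0 h for 18 and 15 of them, against 25.9% of all. Over genes whose 0 h signal itself reached the filter, the counts were 15 of 17 and 14 of 22, beside 24.1% of 6232 probe sets. The neighbours of the 5 h array were the arrays with high spike-in signals, 4.34-fold at 4 h and 3.93-fold at 6 h against 1.01-fold at 5 h. The actin ratio was 5.92% at 4 h, 68.9% at 5 h and 78.6% at 6 h. Their part in the lower values at 5 h was not tested.

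Members higher at 2 h tended to have higher scores in the paf1 deletion, with exceptions. Over the 42 members tested in both sets, the paf1 deletion difference and the log2 ratio at 2 h correlated at 0.56 (Pearson) and 0.56 (Spearman), beside 0.29 and 0.25 over 6107 probe sets. These are descriptions across genes, which are not independent. The 42 include ALD2, SOL4, PAI3 and CTT1, kept in the time course by their later signals. SOL4 and PAI3 were also kept in the strain set by their deletion scores. Coefficients without these genes were not computed, so the ones given carry no test. The score and signal sets share no array. At 5 h the coefficients were 0.29 and 0.37 over the members, beside 0.35 and 0.33 over all. Of the 16 members at least 2-fold at 2 h and tested in the strains, 12 had both paf1 deletion scores above both wild type scores and 2, HOR2 and PIC2, had both below them. Over all probe sets tested in the strains, whatever their signal at 2 h, the shares were 19.4% and 24.1%. The 12 include ALD2, SOL4, PAI3 and CTT1, whose 0 h signals were under the filter.

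**Figure D4:**
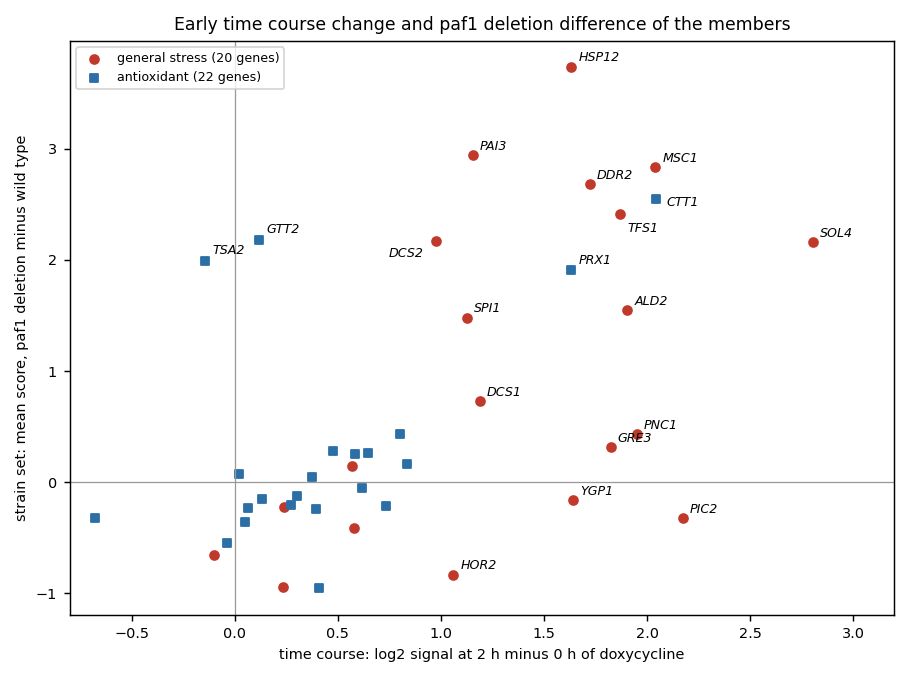
Difference of mean score, paf1 deletion minus wild type (vertical axis), against log2 signal at 2 h minus 0 h of doxycycline (horizontal axis) for the 42 members tested in both sets, general stress genes as circles and antioxidant genes as squares. HSP12, PAI3, MSC1, DDR2, CTT1 and TFS1 are high on both axes, while PIC2, YGP1, PNC1 and GRE3 are high on the horizontal axis alone and TSA2 and GTT2 on the vertical axis alone. PAI3 and CTT1 had 0 h signals no higher than untargeted controls.

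Other genes of these pathways gave 0 calls in limma in either deletion or in the slope. Their counts stand beside 45.6% of all probe sets above wild type in the paf1 deletion and 4.04% at least 2-fold at 2 h. Of 34 stress signalling genes tested, covering the protein kinase A, Rim15, TOR and Hog1 pathways, 15 were above wild type in the paf1 deletion with a median of -0.02, and 0 were at least 2-fold at 2 h. Of 24 tested genes outside the members that are tied to Yap1 or Skn7, 16 were above wild type with a median of 0.32, and 3 of 28 were at least 2-fold at 2 h. All 3 had 0 h signals of 29.9 to 37.3, no higher than untargeted controls, and were kept for testing by their later signals. OYE3, an NADPH dehydrogenase gene, had scores of 7.13 and 5.50 in paf1 deletion cells and 4.79 in ctr9 deletion cells, against 1.98 and 3.88 in wild type. It differed by 3.39 in the paf1 deletion and did not pass (SE 0.78, limma adjusted p = 0.0639). Of 28 tested genes of glutathione and NADPH supply, 11 were above wild type with a median of -0.16, and 1 of 28 was at least 2-fold at 2 h. GSH1, for the first step of glutathione synthesis, counted in both of the last lists and differed by -0.58.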

How the data were processed

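Affymetrix arrays of total RNA were analysed from the authors' deposited values. The strain columns held a deposited score of unstated scale. The time course columns held a deposited signal intensity, whose trimmed mean was the same on each array, 500.4 to 500.5. For software and background steps, the sources used here gave nothing. Gene names came from the platform annotation and RefSeq R64. No sequence was used.

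All 9335 probe sets less 60 controls entered the fits. Scores were not log-transformed. The floor for log2 signals was 5.5, their 10th percentile. The lowest 30% of probe sets by mean (score below 2.84, signal below 37.4) were filtered out. limma 3.58.1 in R 4.3.3 (lmFit, eBayes with a trend, two-sided) was fitted to 5 strain arrays together and to the slope over 6 times, with Benjamini-Hochberg adjustment over all probe sets tested. The single ctr9 deletion array borrowed the spread of the replicated strains. The script was tested on simulated data. p-values measure the spread between arrays, which may be technical, and the small number of arrays limits the precision. Members and lists were chosen with earlier results of these data known. Values are given in full for members past the threshold, the 5 of each group with the largest difference in either deletion or at 8 h, the 4 regulators, and HSP12, CTT1, DDR2, DDR48, TSA1, TRX2, SOD1 and SOD2. OYE3 was named after its values were seen. Alternatives were the filter, normalisation, variance prior, probe set choice, floor, arrays left out and, for the strain set, a replicate block.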

Additional observations from a re-analysis of the deposited data

How the results depend on the processing

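The 5 calls in the paf1 deletion depended on the processing. The count was 0 without a filter, 3 with a filter at the 50th percentile, and 1 with quantile normalization, with the score trend with signal removed or without a trend in the variance prior. GRE1 and PAI3 were not tested with the filter at the 50th percentile, where HSP12, TFS1 and MSC1 passed. Leaving out 1 array gave 0 to 4, the 0 without either wild type array. HSP12, TFS1, MSC1, GRE1 and PAI3 kept their direction under every alternative that tested them, with differences of 2.27 to 4.75, and passed in 2 to 6 of the 10 to 12 alternatives run for each. The fit with a replicate block gave 6 calls, and the same 4 arrays without it gave 4. Over features whose wild type mean reaches the filter, 4 members passed. Same-numbered arrays did not deviate together over all probe sets tested (correlation 0.01). That gave no sign of pairing by number, but a correlation over all probe sets cannot exclude it. The ctr9 deletion count was 0 except for 2 with the mean over the gene's probe sets, where fewer genes were tested, and leaving out 1 array gave 0 to 3, the 3 without either paf1 deletion array. The direct comparison of the deletions gave 0 under every alternative, and leaving out 1 array gave 0 to 0. The slope gave 0 under each alternative run for it (filter, normalization, variance prior, pseudocount in place of the floor, probe set choice), while later times against 0 h, added after seeing the data, gave 5 with 5 h left out and 0 otherwise, and leaving out 1 time from the slope gave 0 to 0. Having only 2 wild type arrays limits what can be seen. So do signals near the controls, for ALD2, ALD3, SOL4, RTN2, PAI3, GRE1, CTT1, CTA1, TSA2, GPX1 and GPX2. The cause of these dependences was not tested.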
